A study of Mus musculus with 4 samples.

Results

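Transcripts of 10 genes for lobe-specific products of the mouse prostate, *Pbsn*, *Sbp*, *Spink1*, *Spink8*, *Msmb*, *Tgm4*, *Apof*, *Gsdma*, *Fgl1* and *Ren1*, were followed in scRNA-seq of adult tissue. They are 10 of the 31053 genes in the count matrices and were chosen by name. EPCAM+ cells were sorted into RFP+ and RFP- fractions from 3 prostate lobes, anterior (AP), dorsolateral (DLP) and ventral (VP), of P2-*Runx1*:RFP mice on an ICR (CD-1) background, in which RFP reports the P2 promoter of *Runx1*. The mice were more than 8 weeks old and were either intact or castrated for more than 4 weeks. Lobes were pooled over mice, each sorted fraction received a MULTI-seq lipid barcode, and the fractions were loaded together in 3 independent runs, so a run is the replicate and p-values measure the spread between runs. In a sum over cells, fewer cells of a type and less RNA per cell cannot be told apart, so values per cell are given beside the sums. Castrated cells carry a lobe label in run 2 only, since castrated lobes were pooled in run 1 and run 3 held intact mice. The barcode of intact DLP RFP+ cells failed in runs 1 and 2, so that population comes from run 3 alone.

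Each gate held basal and luminal cells. Luminal-range cells were therefore taken by their markers, without *Ptprc* and with few UMIs (unique molecular identifiers, 1 per captured transcript) of basal, endothelial or fibroblast genes. They were 1791 of 4691 assigned cells, 1256 intact and 535 castrated. Around the cut of 10, 159 assigned cells (3.39%) lay within 5 to 20 basal UMIs per 10000. The choice of basal genes mattered more. With the cut on *Krt5* and *Krt14* alone there were 2328 luminal-range cells, and 530 against 274 in intact AP RFP+. All 4 luminal markers (*Krt8*, *Krt18*, *Cd24a*, *Dpp4*) were detected in every sum of at least 10 cells. The median number of UMIs per assigned cell was 13055, 10618.5 and 9750 in runs 1 to 3, and 1 barcode was shared between assigned cells of different runs. As a check of the gates, *Runx1* in intact AP was at 71.72, 75.73 and 106.5 CPM (counts scaled to a common library size) in RFP+ and 11.62, 6.33 and 4.255 CPM in RFP- luminal-range cells of runs 1 to 3.

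The lobes of the mouse prostate are separate glands whose luminal cells secrete different mixtures of proteins into seminal fluid, and most of this output depends on androgen. Probasin (*Pbsn*) is an androgen-regulated lipocalin, *Sbp* encodes spermine-binding protein, and *Tgm4* encodes the transglutaminase that cross-links seminal proteins in the copulatory plug. *Spink1* and *Spink8* encode Kazal-type protease inhibitors, *Msmb* encodes beta-microseminoprotein, *Apof* an apolipoprotein, *Fgl1* a fibrinogen-like secreted protein, and *Ren1* encodes renin, the protease that cleaves angiotensinogen. *Gsdma* encodes gasdermin A, a pore-forming protein of the cytosol and not a secreted one.

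The members lie on several chromosomes of GRCm38. *Sbp* (chr17:23941672-23945607, plus strand) is followed by its close paralog *Sbpl* (chr17:23953084-23955274, minus strand), and reads may be split between them. *Pbsn* is at chrX:77837901-77853623 on the minus strand, *Tgm4* at chr9:123034726-123067561 and *Spink8* at chr9:109812280-109826633, both on the plus strand. *Msmb* is at chr14:32142023-32158370, *Apof* at chr10:128268671-128270153 and *Gsdma* at chr11:98664351-98677708, all on the plus strand. *Fgl1* is at chr8:41191434-41215156 on the minus strand and *Ren1* at chr1:133350510-133360325 on the plus strand. Some mouse strains carry a second renin gene that the reference strain lacks, and reads of that copy would be counted to *Ren1*. The presence of that copy in these mice was not tested.

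RefSeq promoter sequences were found for 4 of the 10 members. The 250 bases before the RefSeq start are printed 5′ to 3′ on the strand of the gene because these 4 genes show the different lobe patterns described here: *Pbsn* (GRCm38.p6, chrX:77853501-77853750, minus) and *Tgm4* (chr9:123034491-123034740, plus) in AP and DLP, *Ren1* (chr1:133350424-133350673, plus) in AP, and *Sbp* (chr17:23941428-23941677, plus) in VP. The RefSeq start lies downstream of the GENCODE start of the coordinates above, by 123 bases for *Pbsn*, 164 for *Ren1*, 15 for *Tgm4* and 6 for *Sbp*, so that many bases at the 3′ end of each window are within the GENCODE gene. Capitals mark the hexamer AGAACA or its complement TGTTCT, the half-site of androgen and glucocorticoid receptor elements.
Pbsn: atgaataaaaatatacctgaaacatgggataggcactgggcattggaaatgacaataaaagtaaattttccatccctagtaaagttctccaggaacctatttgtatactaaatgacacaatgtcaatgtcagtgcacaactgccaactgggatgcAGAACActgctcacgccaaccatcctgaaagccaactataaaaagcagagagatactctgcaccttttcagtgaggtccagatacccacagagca
Tgm4: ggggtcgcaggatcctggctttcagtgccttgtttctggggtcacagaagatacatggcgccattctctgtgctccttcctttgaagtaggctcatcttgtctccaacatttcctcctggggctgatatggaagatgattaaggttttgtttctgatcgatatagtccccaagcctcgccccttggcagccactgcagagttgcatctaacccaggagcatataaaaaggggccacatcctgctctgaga
Ren1: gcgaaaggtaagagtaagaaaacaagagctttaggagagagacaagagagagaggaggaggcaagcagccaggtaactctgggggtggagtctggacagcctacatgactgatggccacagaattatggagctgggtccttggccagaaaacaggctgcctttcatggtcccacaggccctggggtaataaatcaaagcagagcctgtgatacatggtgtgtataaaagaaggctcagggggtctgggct
Sbp: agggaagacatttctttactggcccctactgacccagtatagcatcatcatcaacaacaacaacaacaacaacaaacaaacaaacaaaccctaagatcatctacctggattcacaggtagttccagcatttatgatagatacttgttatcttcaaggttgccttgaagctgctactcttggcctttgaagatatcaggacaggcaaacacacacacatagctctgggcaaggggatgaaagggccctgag
The *Pbsn* window held 1 such hexamer, with its first base at -95 from the RefSeq start, which is within the GENCODE gene, and the other windows held 0. A hexamer was present in 16.1% of the 32851 promoter windows of this length, and none of the printed windows held AGAACA followed after 3 bases by TGTTCT, which was found in 3 of the 32851. Both strands are covered by the pair of hexamers. These matches are letters in a window and were not tested as binding sites.

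Free RNA set a floor that differed sharply between the genes. In *Ptprc*-positive cells, blood cells that should make none of these products, the median cell held 4 *Sbp* UMIs in run 1 (114 cells), 15 in run 2 (404 cells) and 9 in run 3 (3 cells), and at least 1 *Sbp* UMI was found in 99.1%, 100% and 100% of them. *Spink1* was seen in 56.1%, 99.8% and 100% of these cells, with medians of 1, 7 and 2 UMIs. By contrast, *Ren1* was seen in 4.39%, 3.96% and 0 of 3 cells, *Gsdma* in 3.51%, 2.23% and 0 of 3, and *Fgl1* in 0.877%, 0.99% and 0 of 3. The median depth of the *Ptprc*-positive cells was 5847.5, 6797.5 and 5366 UMIs. Because run 3 held only 3 such cells, basal-range cells were added as a second background, and there the median was 7, 16 and 9 *Sbp* UMIs in 435, 765 and 1159 cells. A cell was called above background when it held more UMIs of a gene than the 95th percentile of *Ptprc*-positive cells of its run, which for *Sbp* was 26.35, 33 and 13.5 UMIs.

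*Sbp* and *Spink1* were at their highest in the ventral lobe. *Sbp* took 49.1%, 38.3% and 33.1% of all UMIs of intact VP RFP+ cells in runs 1, 2 and 3, and 33% and 29.1% in VP RFP- cells of runs 2 and 3. The 9 VP RFP- cells of run 1, too few for a sum, gave 40.7%. In AP RFP- cells the *Sbp* share of UMIs was 1.7%, 9.5% and 1.52%, and in DLP RFP- cells it was 6.97%, 19.1% and 1.79%. Run 2 was the highest of the 3 runs in both AP RFP- and DLP RFP-, and no VP sum overlapped with these RFP- sums. Here and below, the share of all genes whose sums do not overlap was not counted, so such statements are descriptions only.

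The summed level of *Sbp* in AP and DLP came from few cells. The median AP RFP- cell held 9, 28 and 15 *Sbp* UMIs and the median DLP RFP- cell 8, 30 and 14.5, near the floor above, whereas the median VP RFP- cell of runs 2 and 3 held 12101.5 and 3641. Cells with over 10% of their UMIs in *Sbp*, a limit chosen after the values were seen, made up 1 of 73, 18 of 144 and 2 of 45 AP RFP- cells and 2 of 22, 14 of 64 and 2 of 74 DLP RFP- cells. These cells held between 87.2% and 99.6% of all *Sbp* UMIs of their sum. In VP the same limit was passed by 41 of 44, 162 of 190 and 123 of 146 RFP+ cells and by 49 of 64 and 34 of 46 RFP- cells of runs 2 and 3. Few cells lay between, with 1 to 10% of UMIs in *Sbp* in at most 2 cells of each AP and DLP RFP- sum.

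**Figure D1:**
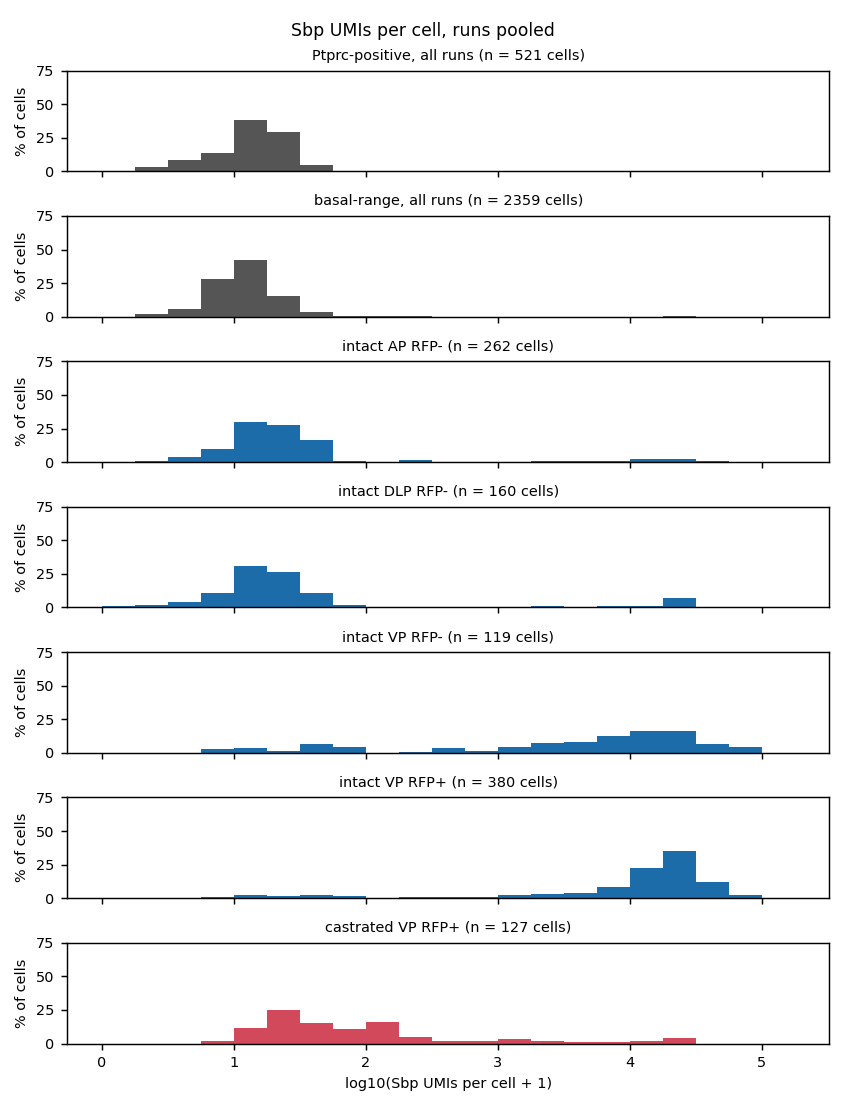
Share of cells (%) by *Sbp* UMIs per cell on a log10(UMIs + 1) axis, runs pooled, for the *Ptprc*-positive and basal-range cells (grey), 4 intact luminal-range populations (blue) and castrated VP RFP+ cells (red). AP and DLP cells sit with the *Ptprc*-positive cells, with a small separate group near the VP cells, and castrated VP RFP+ cells lie mostly at the low end.

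In the 61 intact DLP RFP+ cells of run 3, *Sbp* took 32.7% of UMIs and 37 cells (60.7%, 95% Wilson interval 48.1 to 71.9%) passed the 10% limit, against 2 of 74 DLP RFP- cells of that run. Their MULTI-seq barcode made up a median of 61.9% of barcode counts in those 37 cells and 62% in the others. *Tgm4* was at 243.7 CPM in DLP RFP+ cells and 9926 CPM in DLP RFP- cells of run 3, and *Pbsn* at 1493 and 16840 CPM. With 1 run, this difference between the DLP gates has no replicate check. The part that cells from the ventral lobe have in the DLP RFP+ barcode was not tested.

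*Spink1* followed *Sbp*. It took 13.3% and 18.2% of UMIs in VP RFP+ cells of runs 2 and 3 and 5.45% in run 1, and 11.7% and 15.8% in VP RFP- cells of runs 2 and 3. AP RFP- sums held 0.323%, 3.48% and 0.388% and DLP RFP- sums 1.16%, 6.71% and 0.791%. The VP sums did not overlap with the AP RFP- sums, but the spread between runs in AP and DLP was as wide as for *Sbp*.

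*Tgm4*, *Gsdma* and *Fgl1* were products of AP and DLP. *Tgm4* was at 18880, 14060 and 16820 CPM in AP RFP- cells of runs 1 to 3, at 12690, 6520 and 9926 CPM in DLP RFP- cells, and at 14.26 and 227.2 CPM in VP RFP- cells of runs 2 and 3. *Gsdma* was at 989.5, 638.2 and 713.4 CPM in AP RFP-, 486.4, 235.4 and 288.6 CPM in DLP RFP-, and 0.6955 and 7.276 CPM in VP RFP-. *Fgl1* was at 323.2, 309.6 and 228.3 CPM in AP RFP-, 90.14, 77.55 and 101.1 CPM in DLP RFP-, and 1.043 and 1.617 CPM in VP RFP-. For these 3 genes every AP RFP- sum was above every DLP RFP- sum, and every DLP RFP- sum above every VP RFP- sum. That order is a description only. In the edgeR test given below, *Tgm4* (adjusted p = 0.819) and *Gsdma* (adjusted p = 0.13) did not pass between DLP and AP.

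*Pbsn* was shared between AP and DLP. It was at 11600, 9265 and 11120 CPM in AP RFP- cells and at 15060, 8244 and 16840 CPM in DLP RFP- cells, and these groups overlapped. VP RFP- cells held 1791 CPM in both run 2 and run 3, and 240.3 CPM in the 9 cells of run 1. The median AP RFP- cell held 224, 184 and 77 *Pbsn* UMIs, and 91.8%, 84.7% and 86.7% of AP RFP- cells were above the background, or 94.1%, 84.4% and 90.9% once every cell was thinned to 3000 UMIs. In VP RFP- cells of runs 2 and 3 the shares were 28.1% and 39.1%, or 28.6% and 27.3% after thinning. The *Pbsn* background before thinning was 2.35, 4.85 and 1.9 UMIs in runs 1 to 3, the last from 3 cells. In basal-range cells the 95th percentile was 49.2, 4 and 3 UMIs, so the choice of background matters most in run 1.

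*Spink8* was found in AP and DLP and little in VP. It was at 272, 307.5 and 268.1 CPM in AP RFP-, 142.6, 162 and 278.9 CPM in DLP RFP-, and 35.82 and 31.53 CPM in VP RFP-. In DLP, seminal vesicle genes moved with the lobe: the summed level of *Svs2*, *Svs4*, *Svs5*, *Pate4* and *Pax2* was 15110 to 22390 CPM in DLP RFP- sums and 9.646 to 20.5 CPM in AP RFP- sums, with 4 of the 5 detected in each DLP sum and *Pax2* at 0 by the choice of cells. These UMIs came with 1 of 22, 3 of 64 and 3 of 74 cells that held over 0.5% of them. Without these cells *Spink8* in DLP RFP- was at 128.5, 138.8 and 191.3 CPM, *Pbsn* at 15910, 8636 and 17730 CPM and *Tgm4* at 13410, 6830 and 10450 CPM. The *Spink8* level within the few cells was 389, 649.7 and 1932 CPM. A list of 7 blood cell markers moved with DLP as well. It summed to 757 to 1712 CPM with 2 to 5 detected, against 109.3 to 134.1 CPM in AP RFP-. *Ptprc* was at 0 by the choice of cells. In DLP RFP- of runs 2 and 3 *Laptm5*, *Coro1a* and *Tyrobp* were at 0 too. The run 3 sum, 1712 CPM, came from *Cd52* and *Cd3e* alone. The part of either list in the DLP results was not tested.

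*Ren1* was a product of AP alone among the intact RFP- sums. It was at 2881, 1576 and 2010 CPM in AP RFP- cells, at 2.096, 3.431 and 0.6442 CPM in DLP RFP- cells (7 UMIs in all), and at 0.3477 and 0.8084 CPM in VP RFP- cells (2 UMIs in all). Against the 2 VP UMIs, the ratio over all runs was 4070, with a 95% counting interval of 1130 to 33600. Not every AP cell carried it: at least 3 *Ren1* UMIs were found in 43 of 73, 80 of 144 and 8 of 45 AP RFP- cells, and 128 of those 131 cells were also among the cells with over 0.5% of UMIs in *Tgm4*. The median AP RFP- cell held 8, 6 and 0 *Ren1* UMIs.

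*Msmb* marked a subset of cells in DLP and VP. It was at 85.95, 9938 and 19750 CPM in DLP RFP- sums and at 21710 and 12140 CPM in VP RFP- sums of runs 2 and 3, against 4.783, 93.15 and 1366 CPM in AP RFP-. The medians were at most 1 UMI in DLP RFP- and 1.5 and 5 UMIs in VP RFP-. Cells with over 0.5% of their UMIs in *Msmb* numbered 0 of 22, 11 of 64 and 18 of 74 in DLP RFP- and 2 of 9, 20 of 64 and 13 of 46 in VP RFP-. The 0 of 22 cells of run 1 has a 95% Wilson upper limit of 14.9%, and run 3, at 24.3%, has an interval of 16 to 35.2%.

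The cells of the *Msmb* subset carried other members too. Of the 29 *Msmb*-high DLP RFP- cells, 22 also held over 0.5% of UMIs in *Pbsn*, 5 in *Tgm4*, and 3 passed the *Sbp* limit. Among all 160 DLP RFP- cells, 115 were high in *Pbsn*, 105 in *Tgm4* and 18 in *Sbp*. Of the 35 *Msmb*-high VP RFP- cells, 15 were high in *Pbsn*, 0 in *Tgm4* and 12 in *Sbp*. Among all 119 VP RFP- cells, 17 were high in *Pbsn*, 2 in *Tgm4* and 89 in *Sbp*. All 17 *Pbsn*-high cells of VP RFP- but 2 were thus *Msmb*-high, whereas *Pbsn* and *Tgm4* were high together in 98 of 160 DLP RFP- cells.

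**Figure D2:**
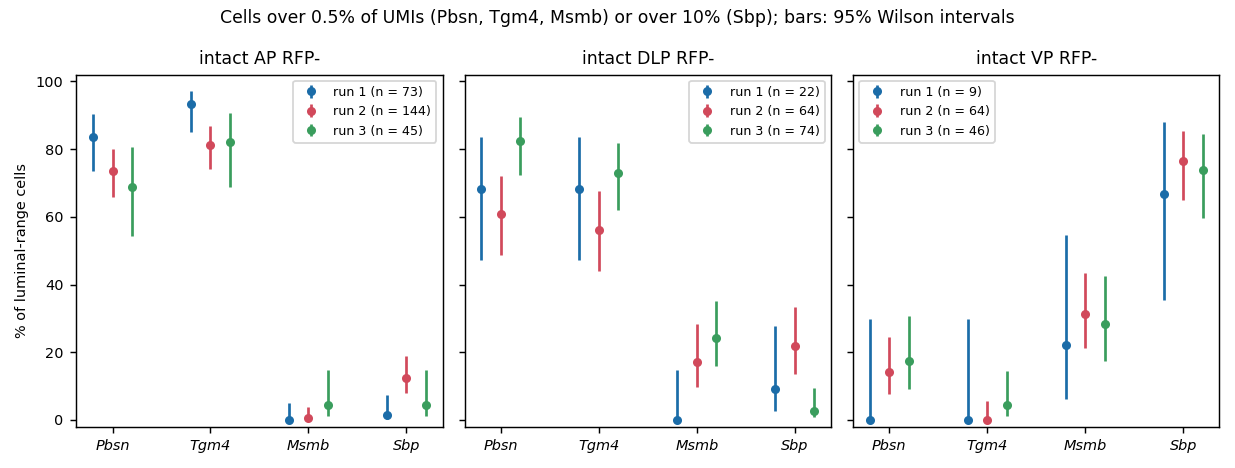
Share (%) of intact RFP- luminal-range cells with over 0.5% of their UMIs in *Pbsn*, *Tgm4* or *Msmb*, or over 10% in *Sbp*, by lobe and run, with 95% Wilson intervals (counting error only). *Pbsn* and *Tgm4* cells prevail in AP and DLP, *Sbp* cells in VP, and *Msmb* cells reach 24.3% in DLP and 31.2% in VP.

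*Apof* was lowest in AP. It was at 52.62, 97.97 and 92.19 CPM in AP RFP-, 224.3, 197 and 278.9 CPM in DLP RFP-, and 285.1 and 316.1 CPM in VP RFP-, and each AP sum was below every DLP and VP sum.

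**Figure D3:**
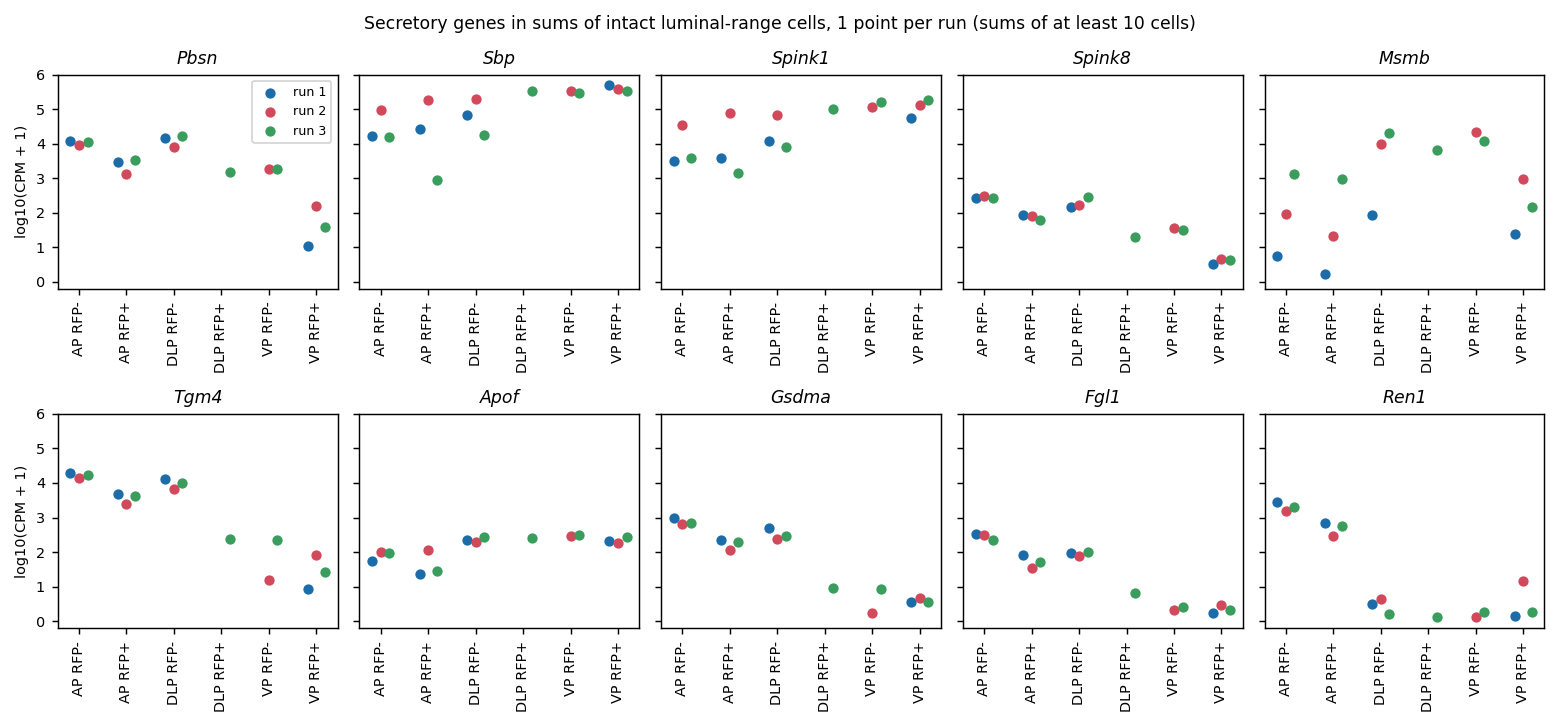
Level of each member on a log10(CPM + 1) axis in sums of intact luminal-range cells of 6 sorted populations, with 1 point per run for sums of at least 10 cells. *Ren1* is high in AP, *Tgm4*, *Gsdma* and *Fgl1* in AP and DLP, *Sbp* and *Spink1* in VP and in the 1 DLP RFP+ point of run 3, with AP and DLP RFP- points of run 2 above those of the other runs, and *Msmb* in DLP RFP- and VP RFP-, with the point of run 1 far below the others in DLP RFP-.

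The lobes were compared by edgeR's quasi-likelihood test on these sums, with Benjamini-Hochberg adjustment over 10181 genes. *Sbp* and *Spink1* took much of each VP library, and the unscaled CPM of the median gene was 0.97 log2 units lower in VP than in AP (log2 difference -0.97), and TMM scaling brought this to -0.05, so the log2 differences are on the TMM scale and lie above the unscaled CPM ratios by that shift. VP RFP- against AP RFP- gave an adjusted p under 0.05 for 13.6% of all genes (7.06% higher and 6.56% lower in VP) and for 6 of the 10 members, 5 lower and 1 higher in VP, with a median log2 difference of -1.78 over the members and -0.05 over all genes. Lower in VP were *Ren1* (log2 difference -10.97 ± 1.31 SE, adjusted p = 0.000103, 3 AP and 2 VP sums), *Gsdma* (-6.94 ± 0.59, adjusted p = 8.26e-06), *Fgl1* (-6.84 ± 0.42, adjusted p = 6.74e-07), *Tgm4* (-5.96 ± 1.1, adjusted p = 0.0025) and *Spink8* (-2.04 ± 0.31, adjusted p = 0.000672). *Apof* was higher in VP by 2.92 ± 0.59 on the log2 scale (adjusted p = 0.00437). The call for *Spink8* was lost without run 2 (lone VP sum) and without the 5% of cells with most UMIs, and that for *Apof* without run 3.

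The 4 members that did not pass in VP against AP were *Sbp* (3.84 ± 1.44, adjusted p = 0.0943), *Spink1* (4.28 ± 1.53, adjusted p = 0.0802), *Msmb* (6.1 ± 2.37, adjusted p = 0.107) and *Pbsn* (-1.52 ± 0.71, adjusted p = 0.187). Their groups did not overlap in unscaled CPM. The share of all genes without overlap was not counted, so this is a description only. Run 2 was the highest AP sum for *Sbp* and *Spink1*. With the run as a block, *Sbp* (4.78, adjusted p = 0.00891), *Spink1* (5.14, adjusted p = 0.00429) and *Msmb* (6.43, adjusted p = 0.00319) passed. In that fit 1868 of the 10181 genes were called against 1387. The block changed the call of no other member in this comparison.

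DLP RFP- against AP RFP- gave calls for 1.7% of all genes (0.56% lower in DLP) and for 2 members, both lower in DLP. These were *Ren1* (-9.83 ± 0.99, adjusted p = 6.31e-05) and *Fgl1* (-1.57 ± 0.22, adjusted p = 0.00155), the latter below 0.05 in 10 of 15 alternatives and lost without run 2, without run 3, with all cells, without the 5% of cells with most UMIs and in cells under 7500 UMIs. *Ren1* lost its call in cells under 7500 UMIs, where 0 genes were called. *Tgm4* did not pass in edgeR (-0.7 ± 0.74, adjusted p = 0.819). *Gsdma* (-1.14 ± 0.34, adjusted p = 0.13) and *Msmb* (4.48 ± 2.14, adjusted p = 0.418) did not pass, and did so with the run as a block (adjusted p = 0.0125 and 0.0317), where 404 genes were called against 173. VP RFP- against DLP RFP- gave calls for 5.13% of all genes (3.4% lower in VP) and for 4 members, all lower in VP: *Gsdma* (-5.8 ± 0.58), *Fgl1* (-5.26 ± 0.43), *Tgm4* (-5.26 ± 1.07) and *Spink8* (-1.62 ± 0.31), with adjusted p of 4.94e-05, 1.95e-05, 0.0113 and 0.00817 from edgeR. *Spink8* lost this call without run 2, without run 3 and without the 5% of cells with most UMIs. *Spink1* (3.04 ± 1.47, adjusted p = 0.258) passed with the block (adjusted p = 0.0412), where 1035 genes were called against 522.

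**Figure D4:**
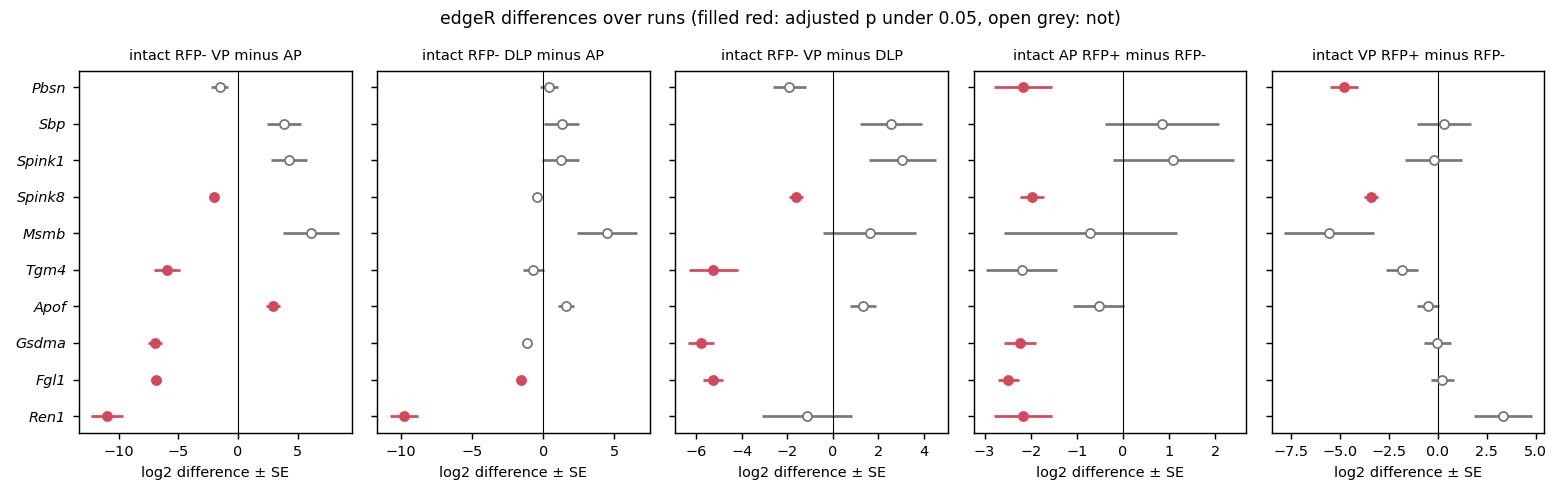
Log2 difference ± SE of each member in the 5 edgeR comparisons of intact sums, where filled red points have an adjusted p under 0.05. In VP against AP 5 members are lower and *Apof* is higher, and every called member is lower in RFP+ than in RFP- cells.

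In AP, several of the products were lower in RFP+ than in RFP- cells. *Tgm4* was at 4810, 2445 and 4273 CPM in AP RFP+ cells, *Ren1* at 696.9, 297.4 and 549.2 CPM and *Pbsn* at 2948, 1300 and 3418 CPM, each below all 3 AP RFP- sums. edgeR called 18.7% of all genes between the AP gates (8.02% lower in RFP+) and 5 members, all lower: *Fgl1* (-2.49 ± 0.23, adjusted p = 1.13e-05), *Gsdma* (-2.23 ± 0.35, adjusted p = 0.00053), *Spink8* (-1.98 ± 0.26, adjusted p = 0.000147), *Pbsn* (-2.16 ± 0.63, adjusted p = 0.0261) and *Ren1* (-2.16 ± 0.63, adjusted p = 0.0257). *Tgm4* (-2.2 ± 0.77, adjusted p = 0.0602) missed the threshold and passed with the block (adjusted p = 0.0332), where 2857 genes were called against 1903. The call for *Pbsn* was lost without run 2 or run 3, with all cells and in cells under 7500 UMIs, that for *Ren1* without run 1 or run 3 and with DESeq2, and that for *Fgl1* in cells under 7500 UMIs. *Sbp* and *Spink1* took 18.4% and 7.64% of UMIs in AP RFP+ cells of run 2 and 0.0869% and 0.145% in run 3, and did not pass (adjusted p = 0.711 and 0.628).

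The lower sums of AP RFP+ cells went with fewer cells that carried the products. *Tgm4* exceeded 0.5% of UMIs in 16 of 96, 7 of 69 and 10 of 109 RFP+ cells, against 68 of 73, 117 of 144 and 37 of 45 RFP- cells. Within these *Tgm4*-high cells the median was 226, 208 and 160 *Tgm4* UMIs per 10000 in RFP+ and 202, 199 and 171 in RFP- cells. For *Pbsn*-high cells it was 120, 101 and 130 in RFP+ and 120, 136 and 123 in RFP-. The cells were taken by a limit on the same gene, which can draw these medians together. The medians therefore cannot tell fewer cells from less RNA per cell. *Krt4*, a keratin gene of proximal luminal cells, moved with the gate, at 323.4, 99.39 and 170 CPM in AP RFP+ and 12.98, 5.728 and 4.255 CPM in AP RFP- sums of runs 1 to 3. Its part in the differences was not tested.

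In VP, 2 members differed between the gates. For run 3, one column of the sample sheet gives both VP fractions the barcode sequences of the AP fractions and another gives each fraction an oligo of its own, and the VP labels were used as deposited. *Pbsn* was at 9.666, 153.6 and 37.43 CPM in VP RFP+ cells and *Spink8* at 2.32, 3.616 and 3.286 CPM, each below both VP RFP- sums. In *Ptprc*-positive cells of runs 1 and 2 *Pbsn* was at 413.8 and 336.9 CPM and *Spink8* at 2.237 and 6.71 CPM. In those without an *Epcam* UMI it was 147.1 and 93.49 CPM for *Pbsn* and 1.532 and 1.14 CPM for *Spink8*. The RFP+ levels were thus near free RNA, and the size of a difference from RFP- depends on that floor. edgeR called 0.363% of all genes (0.354% lower in RFP+), and 2 members, *Pbsn* (-4.81 ± 0.73, adjusted p = 0.00798) and *Spink8* (-3.42 ± 0.34, adjusted p = 0.000477), both lower in RFP+. *Pbsn* lost its call without run 3 and *Spink8* without run 2 or run 3, which leave 1 VP RFP- sum, and *Pbsn* also with all cells or with the basal cut on *Krt5* and *Krt14*. *Msmb* was at 22.81, 955.1 and 146.4 CPM in VP RFP+ cells and did not pass (-5.56 ± 2.31, adjusted p = 0.735). *Sbp* (0.32 ± 1.39, adjusted p = 1) and *Spink1* (-0.22 ± 1.44, adjusted p = 1) did not pass either, with standard errors over 1 log2 unit. With the block 121 genes were called against 37.

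Castration was compared within run 2, with 1 sum per treatment, so there is no test, and intervals cover counting error only. A difference of at least 4-fold was taken as a call among genes at 20 CPM or more in either sum. In AP RFP- cells (144 intact, 50 castrated), 6 of 10 members were at least 4-fold lower and 0 higher after castration, against 2.82% and 1.87% of all genes. *Ren1* went from 1576 to 36.08 CPM, 43.7-fold lower (95% counting interval 31.4 to 62.8), *Tgm4* from 14060 to 426.7 CPM (32.9-fold, 29.9 to 36.4) and *Spink8* from 307.5 to 16.49 CPM (18.6-fold, 11.4 to 32.7). *Gsdma* was 16.3-fold, *Fgl1* 15.8-fold and *Pbsn* 10.9-fold lower. *Apof* was at 97.97 CPM in intact and 98.95 CPM in castrated cells.

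*Pbsn* was not at the floor in castrated AP RFP- cells. The median castrated AP RFP- cell held 8 *Pbsn* UMIs and the median intact one 184, and 33 of 50 castrated cells (66%) were above the *Ptprc*-positive background, or 54.2% after thinning. The median castrated AP RFP+ cell held 1 *Pbsn* UMI, and 56 of 182 of those cells (30.8%) were above the background, or 25.7% after thinning. For *Tgm4* in castrated AP RFP- cells the median was 0 UMIs, with 9 of 50 cells above the background, or 8.33% after thinning. In castrated DLP RFP- cells (21 cells) the medians were 8 UMIs for *Pbsn* and 2 for *Tgm4*.

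In DLP RFP- cells (64 intact, 21 castrated), 5 members were at least 4-fold lower and 1 higher, against 2.14% and 0.647% of all genes. *Msmb* had 9938 CPM in intact and 14.47 CPM (7 UMIs) in castrated cells, a 687-fold ratio (counting interval 333 to 1710). The castrated level is below the 123.4 CPM of the *Ptprc*-positive cells of that run, of which 1 cell held 325 UMIs. It is also below the 30.21 CPM of those without an *Epcam* UMI and so at the level of free RNA. None of the 21 castrated cells held over 0.5% of UMIs in *Msmb* (95% Wilson upper limit 15.5%), against 11 of 64 intact ones (9.88 to 28.2%), and these intervals overlap. Intact DLP RFP- cells of run 1 were at 85.95 CPM, with none of 22 cells over that limit. *Pbsn* was 14.8-fold, *Spink8* 8.71-fold, *Gsdma* 6.7-fold and *Tgm4* 5.97-fold lower. *Ren1* went the other way, from 5 to 16 UMIs (3.431 to 33.08 CPM), and 1 castrated cell held at least 3 of them, so this value rests on few UMIs. Other genes moved in this population too: the seminal vesicle genes summed to 21700 CPM in intact and 14.47 CPM in castrated cells. The 7 blood markers summed to 757 and 66.15 CPM, with *Ptprc*, *Laptm5* and *Coro1a* at 0 in both. The part of either list in the differences was not tested.

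In AP RFP+ cells (69 intact, 182 castrated), 4 members were at least 4-fold lower and 0 higher, against 2.86% and 3.03% of all genes: *Ren1* (15.5-fold, 11.8 to 20.7), *Tgm4* (14.3-fold, 13.1 to 15.7), *Gsdma* (4.66-fold) and *Spink8* (4.6-fold). The count fell to 2 members, *Tgm4* and *Ren1*, with all cells or with a basal cut on *Krt5* and *Krt14* alone. The make-up of these sums moved as well: the 4 luminal markers summed to 2157 CPM in intact and 8984 CPM in castrated cells, the 7 blood markers to 459.9 and 29.88 CPM, and *Krt4* was at 99.39 and 17.93 CPM. Their part in the differences was not tested. In VP RFP+ cells (190 intact, 127 castrated) 4 of the 6 members that reached 20 CPM were at least 4-fold lower and 0 higher, against 0.825% and 6.92% of all genes: *Msmb* (57-fold, 41.8 to 79.8), *Sbp* (5.36-fold, 5.33 to 5.38), *Apof* (5.27-fold, 4.21 to 6.68) and *Spink1* (4.75-fold, 4.71 to 4.79). Over 0.5% of UMIs in *Msmb* were held by 3 of the 190 intact cells (95% Wilson interval 0.538 to 4.54%). Among castrated cells it was 0 of 127 (upper limit 2.94%), and these intervals overlap. The intact *Msmb* level ranged from 22.81 to 955.1 CPM over the runs, with run 2 the highest. The castrated level, 16.77 CPM, was below the 30.21 CPM of *Ptprc*-positive cells without an *Epcam* UMI. In this population the median gene was 0.99 log2 units higher after castration, or 0.03 with the members left out of the total. With them left out *Msmb* was 106-fold, *Sbp* 9.99-fold, *Apof* 9.82-fold and *Spink1* 8.86-fold lower, and 6 of 7 members were at least 4-fold lower. The other two were *Pbsn* (4.71-fold) and *Ren1*, which had 121 UMIs in intact and 0 in castrated cells, but only 1 of the 190 intact cells held at least 3 of them.

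The median VP RFP+ cell and the VP RFP+ sum gave different pictures of *Sbp*. The median VP RFP+ cell held 17958.5 *Sbp* UMIs in intact and 48 in castrated mice, with the 95th percentile of the background at 33. Of the castrated VP RFP+ cells, 13 of 127 (10.2%, 95% Wilson interval 6.08 to 16.7%) passed the 10% limit, against 162 of 190 intact ones, and these 13 held 92.9% of the castrated *Sbp* UMIs. No such drop was seen in VP RFP-, where 7 of 8 castrated and 49 of 64 intact cells passed the limit. Those 8 cells were too few for a sum. With all cells that were not *Ptprc*-positive (153 intact, 16 castrated), *Sbp* in VP RFP- was at 257300 CPM in intact and 327600 CPM in castrated cells. In castrated AP RFP- and DLP RFP- cells *Sbp* was higher in the sum, at 18.1% and 27.9% of UMIs against 9.5% and 19.1% in intact cells, while the medians were 19 and 16 UMIs against 28 and 30.

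The castrated cells with over 10% of UMIs in *Sbp* were deeper than the other cells of their population. They numbered 9 of 50 in AP RFP-, 10 of 182 in AP RFP+, 5 of 21 in DLP RFP-, 4 of 137 in DLP RFP+ and 7 of 8 in VP RFP-. Their median depth in AP RFP- was 50226 UMIs against 11628 in the other castrated cells of that population, and their own barcode made up a median of 20% of MULTI-seq counts against 42.3%. In DLP RFP- the depth was 56544 against 10017 UMIs and the barcode share 20.9% against 49.3%. In AP RFP+ the barcode share was also lower, at 31.4% against 53.4%, whereas it was 29.9% against 31.8% in DLP RFP+ and 29% against 18.3% in VP RFP-. Intact *Sbp*-high cells were deeper too, in run 2 at 44530 against 21867.5 UMIs in AP RFP- and 53770 against 15100 in DLP RFP-. Their barcode share differed in both directions. It was 60.7% against 48.6% in AP RFP- and 68.4% against 59.4% in DLP RFP- of run 2. By contrast, it was 25% against 42.5% in AP RFP+ of run 2 and 40.1% against 58.6% in the 2 such DLP RFP- cells of run 1. In intact VP RFP+ cells of run 2 the share was 77.4% against 46.8%. The part that wrong barcode calls have in the castrated *Sbp* sums was not tested.

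**Figure D5:**
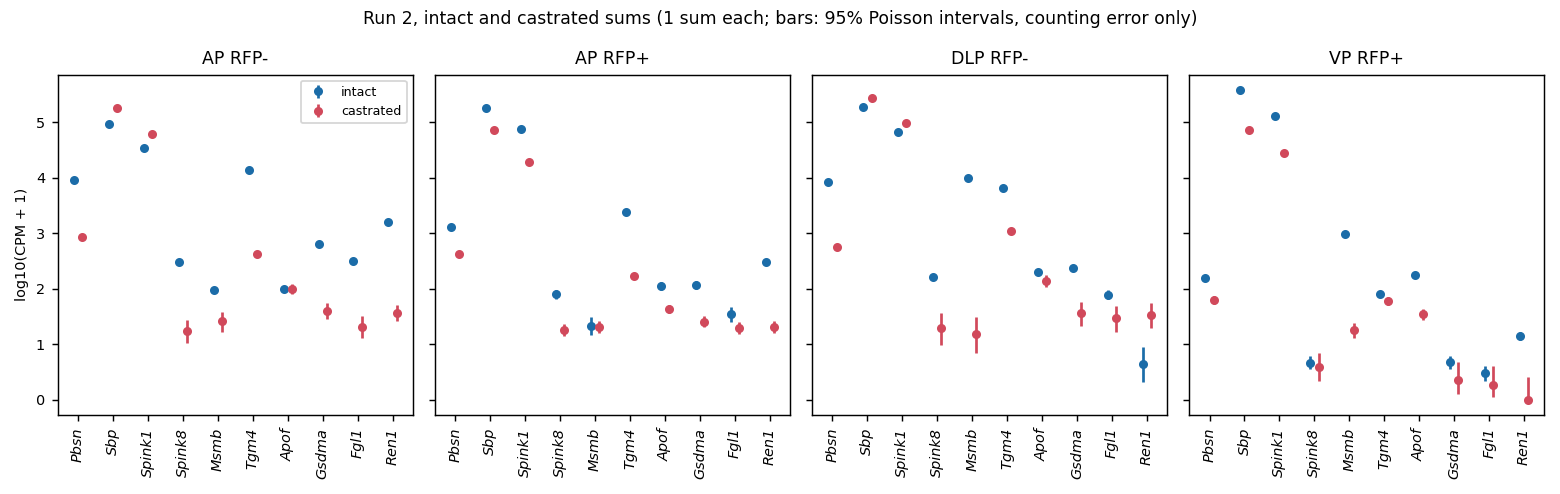
Level of each member in run 2 on a log10(CPM + 1) axis in intact (blue) and castrated (red) sums of 4 populations, with 95% Poisson intervals. *Tgm4*, *Gsdma* and *Ren1* are lower after castration in both AP gates, *Msmb* in DLP RFP- and VP RFP+, and *Sbp* and *Spink1* are lower in VP RFP+ but not in AP RFP- or DLP RFP-. The intact *Msmb* sums rest on few cells.

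Over all 21 sums the members fell into few patterns, given here as Pearson r of log2(CPM + 1) across sums that share runs and depth, over the 2049 genes whose mean reached 50 CPM. *Sbp* was most like *Sbpl* (r = 0.994) and *Spink1* (0.958). *Tgm4* was most like *9530053A07Rik* (0.989), *Chn2* (0.984) and *Gm5615* (0.98), and *Gsdma* and *Fgl1* were each other's nearest (0.977). *Pbsn* and *Spink8* were each among the other's 3 nearest (0.94), with *Slc30a2* and *Atp6v1c2* near both. *Msmb* was most like *Defb50* (0.961), *Ren1* like *9530003J23Rik* (0.899), and *Apof* had no close neighbour, with *Azgp1* at 0.775.

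Among 15 other secretory genes, taken from the lists of the study for its luminal clusters and so not independent of these data, 9 were higher and 2 lower in VP RFP- than in AP RFP-, with a median log2 difference of 3.77 against -0.05 over all genes. The largest changes were *Spink11*, another Kazal-type inhibitor gene, at 6.23 ± 1.26 (adjusted p = 0.00429) and *C1rb*, a complement protease gene, at -6.95 ± 0.92 (adjusted p = 0.000231). DLP against AP gave 2 higher, *Spink11* at 6.26 ± 1.18 (adjusted p = 0.0133) and *Gpx3*. *Spink11* had 0, 0 and 4 UMIs in AP RFP- and 0, 80 and 163 in DLP RFP- sums, so the groups overlapped, and its call was kept in 9 of 14 alternatives in DLP against AP and in 11 of 14 in VP against AP, being lost in both with DESeq2, without run 2 and without run 3. VP against DLP gave 1 higher, *Timp4*, a protease inhibitor gene, at 2.65 ± 0.53 (adjusted p = 0.0105) and 3 lower, led by *C1rb* at -4.87 ± 0.87 (adjusted p = 0.00453). Between the AP gates 1 was higher in RFP+, *Timp4* at 2.49 ± 0.51 (adjusted p = 0.00333), and 3 were lower, led by *Itln1* at -3.99 ± 1.22 (adjusted p = 0.0335). Between the VP gates 3 were lower in RFP+, led by *Defb1*, a beta-defensin gene, at -5.29 ± 0.83 (adjusted p = 0.0098).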

How the data were processed

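Droplet-based scRNA-seq (10x 3′ v3) was analysed from 3 adult runs. The deposited files hold raw UMI counts, which the authors made with Cell Ranger 3.1.0 on mm10 (GRCm38), and MULTI-seq barcode counts. Cells with 750 to 7500 genes and under 10% mitochondrial counts were kept (the methods word the upper limit as 7500 UMIs, an alternative here), and populations were assigned with the barcode thresholds of the study. DoubletFinder was not used here. Luminal-range cells carried under 10 basal, 5 endothelial and 5 fibroblast UMIs per 10000 and no *Ptprc* or *Pax2* UMI. Sums of UMI counts, 1 for each population in each run with 10 or more cells, were tested with edgeR 4.0.16 (TMM, filterByExpr, quasi-likelihood, threshold 0.05) in R 4.3.3, with DESeq2 1.42.0 as an alternative. SE is the log2 difference divided by the root of F.

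Runs pair the sums, since populations of a run share mice and library, and deviations within a run correlated at 0.207 to 0.371 (DLP and AP), 0.306 to 0.368 (AP gates), 0.203 (VP gates), 0.044 (VP and AP) and 0.043 (VP and DLP). Both tools were tested on simulated data at a spread estimated from these sums and at a fixed, larger one, and at the larger one edgeR found few of the 4-fold changes and DESeq2 made more false calls than its threshold allows. Intervals and limits cover counting error only. The explant library was not used here. The members and lists were chosen with earlier results of these data known. Text names the members, the largest change in each direction of the other secretory genes, and the 3 genes most like each member. Added after the values were seen were the basal-range background, the *Krt5* and *Krt14* cut, the limits for *Sbp*, *Pbsn*, *Tgm4*, *Msmb* and *Ren1* cells and the difference of the RFP effects. The summed level of 1 marker list is not reported here.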

Additional observations from a re-analysis of the deposited data

Results flagged for a closer look

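*Fgl1* was marked because the difference between RFP+ and RFP- cells was not the same in AP and in VP. The AP difference minus the VP difference was -2.71 ± 0.59 on the log2 scale (edgeR, adjusted p = 0.0287), a test added after the values were seen, in which 225 of 10181 genes passed. The difference itself was -2.49 in AP, lower in RFP+ in 3 of 3 runs, and 0.22 in VP. The VP side rests on 28 *Fgl1* UMIs in RFP+ and 5 in RFP- cells, at 0.7733 to 1.972 CPM in RFP+ and 1.043 and 1.617 CPM in RFP- sums. These VP levels are below the 3.355 and 3.792 CPM of the *Ptprc*-positive cells of runs 1 and 2. That background came from 1 of 114 and 4 of 404 cells. The *Ptprc*-positive cells without an *Epcam* UMI (100 and 271 cells) held 0 *Fgl1* UMIs in both runs. On so few UMIs the VP difference of 0.22 cannot be read as expression. None of the other 9 members passed this test, with *Ren1* at -5.5 ± 1.52 (adjusted p = 0.0793) and *Spink8* at 1.43 ± 0.42 (adjusted p = 0.0998).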

How the results depend on the processing

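Of 27 called values, 12 kept their call under every alternative and 0 reversed; of 31 not called, 16 passed under at least 1. Numbers of genes called are given for VP against AP, DLP against AP, VP against DLP, the AP gates and the VP gates, where they moved by more than 1.5 times. With all cells that were not *Ptprc*-positive they were 440, 35, 167, 528 and 62. With no low-count filter DLP against AP, VP against DLP and the VP gates gave 537, 977 and 194, and with the run as replicate block the last 4 comparisons gave 404, 1035, 2857 and 121. The block changed no call of a member other than those given in the report. Under 7500 UMIs per cell DLP against AP gave 0 genes and the AP gates 131, and the VP comparisons could not be fitted, since too few cells were left. The *Krt5* and *Krt14* cut gave 81 for DLP against AP, and DESeq2 gave 74 for the VP gates. Leaving out 1 run gave 328 to 1111, 19 to 94, 55 to 450, 754 to 1106 and 0 to 33, where a lone VP RFP- sum is assumed to vary like the rest.

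Every reversed value was one that had not passed. Under 7500 UMIs DLP against AP gave *Sbp* -0.94, *Spink1* -0.7 and *Tgm4* 0.05, and the AP gates *Sbp* -1.56 and *Spink1* -1.57. With all cells *Spink8* was 0.06 in DLP against AP, *Sbp* was -0.19 in the AP gates, and *Spink1*, *Apof* and *Gsdma* were 0.83, 0.54 and 0.5 in the VP gates. In the VP gates *Spink1* was 0.09 with the block and 0.17 with the *Krt5* and *Krt14* cut. *Gsdma* there was 0.02 with no filter, 0.04 with the block and 0.01 with a basal cut of 20, and *Fgl1* was -0.09 without the 5% of cells with most UMIs. Without 1 run, *Ren1* in VP against DLP ranged from -2.3 to 0.82, and *Sbp* and *Spink1* in the AP gates from -0.47 to 1.01 and -0.57 to 1.2. In the VP gates *Spink1* ranged from -0.54 to 0.13, *Tgm4* from -3.89 to 1.65, *Gsdma* from -1.59 to 2.25, *Fgl1* from -0.76 to 0.64 and *Ren1* from -0.31 to 4.39. After castration 171 of 250 values moved by less than their counting interval, 79 moved and 0 values of at least 4-fold changed sign. *Apof*, below 4-fold, changed sign in AP RFP+ under 7500 UMIs (from -1.42 to 0.22, on 2 and 4 UMIs) and in AP RFP- without the 5% of cells with most UMIs (from 0.01 to -0.15). Members at least 4-fold lower in AP RFP+ numbered 2 with all cells, 1 under 7500 UMIs and 2 with the *Krt5* and *Krt14* cut. The background median of *Sbp* was 7 in run 1 in basal-range cells and 14 in run 2 without an *Epcam* UMI. The causes were not tested.

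The limits are the number of runs, 1 run for castrated lobes and DLP RFP+, and 3 *Ptprc*-positive cells in run 3.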
